A study of Mus musculus with 4 samples.

Results

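The cytosolic sulfotransferases described here are 7 genes, Sult1e1, Sult2a8, Sult1a1, Sult1b1, Sult1c2, Sult1d1 and Sult5a1, of 18193 mouse genes named on the array. The set was chosen by the array signals of the same comparison, above all those of Sult1e1 and Sult2a8. Their differences between the groups are therefore a description and carry no test. Every probe set whose single annotated symbol is one of the 7 names was used, which gave 8 probe sets, 2 of them for Sult1d1.

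Regenerating liver of nude mice (BALB/c nu/nu, a strain without mature T cells) was profiled on 4 single-colour Affymetrix arrays. All mice had first been given carbon tetrachloride, a liver toxin that scars the organ on repeated dosing, 23 times at 0.25 ml/kg. They then received 1000000 human bone marrow mesenchymal stem cells through the spleen, which carried OGFRL1 (n = 2 arrays) or, in the control group, the fluorescent protein EGFP (n = 2 arrays). Part of the liver was removed on day 21, and the regrowing tissue was taken on day 8 after that operation. The comparison asks what OGFRL1 in the transplanted cells changes in the regenerating liver, since toxin, transplant and surgery are shared by both groups. The sources used here give neither the sex of the mice nor whether each array is a different animal, so the errors measure only the spread between these arrays, which may be technical.

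Sulfotransferases move a sulfonate group from the donor PAPS (3'-phosphoadenosine 5'-phosphosulfate) to hydroxyl or amino groups of hormones, bile acids, neurotransmitters and drugs. The product is more soluble in water and is usually inactive at the receptor of the parent hormone. Liver is a main site of the reaction, and the members of the family differ in their preferred substrates. Sult1e1 encodes the oestrogen sulfotransferase, Sult2a8 a liver enzyme that sulfonates bile acids, Sult1a1 the phenol sulfotransferase, Sult1b1 an enzyme of phenols and thyroid hormones, and Sult1d1 an enzyme of catecholamines.

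In the RefSeq gene order of the GRCm38.p6 assembly, Sult1b1, Sult1d1 and Sult1e1 are direct neighbours on chromosome 5. Sult2a8 lies on chromosome 7 between Sult2a6 and Sult2a7. The 250 bases before the annotated starts are shown for these 4 genes, because adjacent genes of one cluster had different responses and because Sult2a8 was the member with the lower signal by the widest margin. Sult2a8 has 2 annotated starts, both shown, and of the 2 starts of Sult1b1 the one farther upstream is shown. Capitals mark matches, on either strand, to AGGTCA (the nuclear receptor half-site), GTTAAT (an HNF1 half-site) or TATAAA (the TATA box). TGTTTAC (forkhead) and TTCNNNGAA (STAT) were searched too.
Sult1e1 (chr5:87591612-87591861, minus strand): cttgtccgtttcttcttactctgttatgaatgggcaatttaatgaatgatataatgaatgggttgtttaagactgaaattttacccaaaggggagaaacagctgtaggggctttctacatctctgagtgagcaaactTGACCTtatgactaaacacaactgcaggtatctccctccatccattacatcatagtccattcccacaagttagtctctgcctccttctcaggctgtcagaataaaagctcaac
Sult1d1 (chr5:87569007-87569256, minus strand): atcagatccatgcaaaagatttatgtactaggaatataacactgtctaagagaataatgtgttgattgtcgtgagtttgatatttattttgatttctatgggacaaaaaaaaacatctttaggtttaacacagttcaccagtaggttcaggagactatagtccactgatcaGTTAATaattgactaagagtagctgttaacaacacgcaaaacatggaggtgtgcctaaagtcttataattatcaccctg
Sult1b1 (chr5:87538196-87538445, minus strand): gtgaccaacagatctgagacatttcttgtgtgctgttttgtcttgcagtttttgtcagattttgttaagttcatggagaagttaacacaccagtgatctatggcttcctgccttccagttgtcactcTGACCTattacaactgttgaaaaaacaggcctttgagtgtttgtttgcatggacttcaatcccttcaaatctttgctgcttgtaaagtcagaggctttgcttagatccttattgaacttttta
Sult2a8 upstream start (chr7:14446588-14446837, minus strand): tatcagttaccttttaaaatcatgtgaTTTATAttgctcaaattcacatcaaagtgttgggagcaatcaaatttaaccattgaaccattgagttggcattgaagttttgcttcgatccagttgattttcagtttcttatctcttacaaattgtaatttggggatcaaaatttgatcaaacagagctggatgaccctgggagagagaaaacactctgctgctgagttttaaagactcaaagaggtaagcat
Sult2a8 downstream start (chr7:14438552-14438801, minus strand): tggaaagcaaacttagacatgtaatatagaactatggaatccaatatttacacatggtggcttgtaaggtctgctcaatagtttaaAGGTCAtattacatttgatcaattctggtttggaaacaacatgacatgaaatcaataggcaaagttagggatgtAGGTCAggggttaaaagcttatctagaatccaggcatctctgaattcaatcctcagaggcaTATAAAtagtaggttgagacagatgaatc
The sequences are from RefSeq, build GRCm38.p6, written 5' to 3' along the gene's strand. Sult1e1 and Sult1b1 each have 1 AGGTCA match, in both as TGACCT on the strand shown, beginning 113 and 123 bases before the start. The downstream start of Sult2a8 has 2 AGGTCA matches and a TATAAA that begins 29 bases before the start, and the upstream start has a TATAAA match on the other strand only. The single match of Sult1d1 is GTTAAT. Among 32817 upstream windows of the same length, 14% hold AGGTCA, 12.4% TATAAA, 6.44% GTTAAT, 7.01% TTCNNNGAA and 3.16% TGTTTAC. None of the 3 motifs marked overlapped another, and a match in these letters is not evidence that a factor binds.

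Sult1e1, the oestrogen sulfotransferase, had signals of 104 and 42.1 on EGFP arrays 1 and 2 and of 1304 and 875 on OGFRL1 arrays 1 and 2. Both OGFRL1 arrays were far above both EGFP arrays, and the lower OGFRL1 value was 8.43 times the higher EGFP value. The group means were 73.0 ± 43.6 (SD, n = 2) and 1089 ± 303 (SD, n = 2), a ratio of 14.9. On the log2 scale, after addition of a pseudocount of 3.51, OGFRL1 minus EGFP was 3.94 ± 0.40 (SE of the fit). The EGFP arrays differed from each other 2.47-fold. Without EGFP 2 the log2 difference was 3.32, and without EGFP 1 it was 4.55.

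Sult2a8, the bile acid sulfotransferase, went the other way. Its signals were 1328 and 1928 on the EGFP arrays and 182 and 139 on the OGFRL1 arrays. The groups did not overlap, and the lower EGFP value was 7.31 times the higher OGFRL1 value. Means were 1628 ± 424 (SD, n = 2) and 160 ± 29.9 (SD, n = 2), so the mean of the EGFP arrays was 10.2 times that of the OGFRL1 arrays. The log2 difference was -3.30 ± 0.22 (SE). These values come from 1 probe set. Transcripts of other Sult2a genes, which are close copies, may contribute to it, which was not tested. By absolute log2 difference Sult1e1 ranked 2 and Sult2a8 ranked 3 among 11942 genes, of which 5 had an absolute difference of at least 3.

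**Figure D1:**
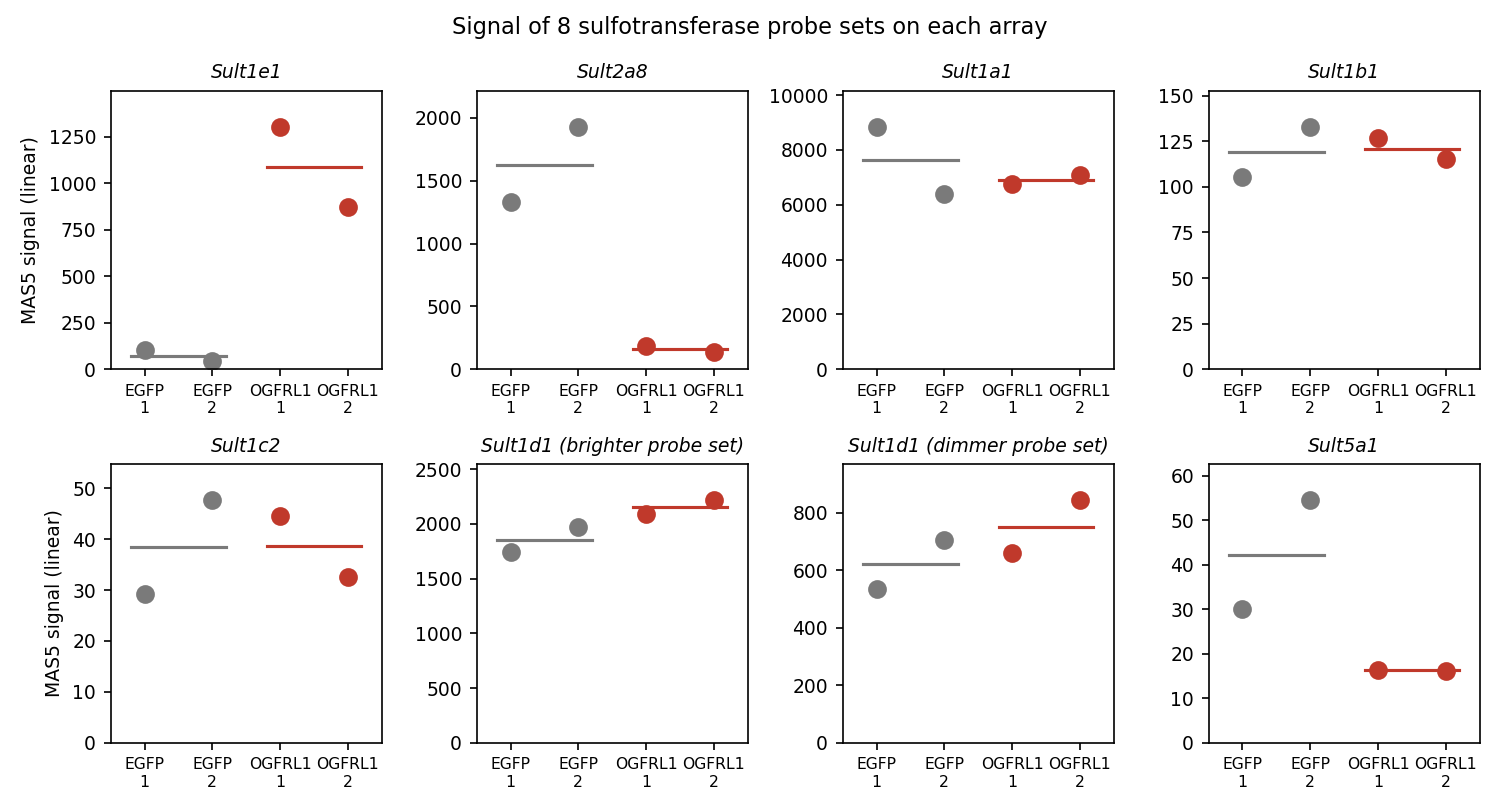
MAS5 signal (linear axis from 0) of the 8 sulfotransferase probe sets on the 2 EGFP (grey) and 2 OGFRL1 (red) arrays; each point is an array and each line a group mean. Sult1e1 is at 42.1 to 104 in EGFP and 875 to 1304 in OGFRL1, Sult2a8 at 1328 to 1928 and 139 to 182, and the points of Sult1a1, Sult1b1 and Sult1c2 overlap between the groups.

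Sult5a1 was the third gene with a large difference. Its signals were 30.1 and 54.4 in EGFP and 16.3 and 16.2 in OGFRL1. The groups did not overlap, but the gene was dim: the OGFRL1 values were close to 11.6, the lowest mean signal at which a gene was kept. Means were 42.3 ± 17.2 and 16.2 ± 0.11 (SD, n = 2 each), and the log2 difference was -1.16 ± 0.33 (SE). It was -1.55 without EGFP 1 and -0.77 without EGFP 2. A larger absolute log2 difference was found for 2.32% of all genes.

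Sult1d1, the catecholamine sulfotransferase and the direct neighbour of Sult1e1, differed little. Its brighter probe set had 1743 and 1972 in EGFP and 2091 and 2215 in OGFRL1. Both OGFRL1 arrays were higher, with means of 1857 ± 162 and 2153 ± 87.2 (SD, n = 2 each) and a log2 difference of 0.21 ± 0.14 (SE). The dimmer probe set had 535 and 707 in EGFP and 659 and 844 in OGFRL1, so here OGFRL1 1 lay below EGFP 2. Its log2 difference was 0.28 ± 0.20 (SE). The 2 probe sets thus gave differences 0.06 apart, less than either SE, while the separation of the groups was seen with the brighter one alone. About 51.0% of all genes had a larger absolute difference than the brighter probe set.

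Sult1b1, the next gene in the chromosome 5 cluster, had 106 and 133 in EGFP and 127 and 115 in OGFRL1. The OGFRL1 values lay between the EGFP values, and the log2 difference was 0.03 ± 0.18 (SE). Across the 3 adjacent genes the log2 differences were 0.03 for Sult1b1, 0.21 for Sult1d1 and 3.94 for Sult1e1. The genes flanking the cluster, Ugt2a2 and the casein gene Csn1s1, were not among the genes tested.

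Sult1a1, the phenol sulfotransferase, had 8841 and 6395 in EGFP and 6758 and 7077 in OGFRL1. Its EGFP arrays enclosed the OGFRL1 arrays, with means of 7618 ± 1730 and 6917 ± 226 (SD, n = 2 each). The log2 difference was -0.12 ± 0.19 (SE), and its sign turned with the scaling, to 0.33 after quantile normalization and 0.23 after scaling to the spike-in controls. Its probe set, of a type designed to detect several transcripts of a gene, was brighter than 99.8% of all probe sets. Sult1c2 had 29.2 and 47.6 in EGFP and 44.6 and 32.6 in OGFRL1, fully interleaved, with a log2 difference of 0.03 ± 0.30 (SE). The sign for Sult1b1 and Sult1c2 also turned with the setting, to -0.05 and -0.07 after quantile normalization.

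**Figure D2:**
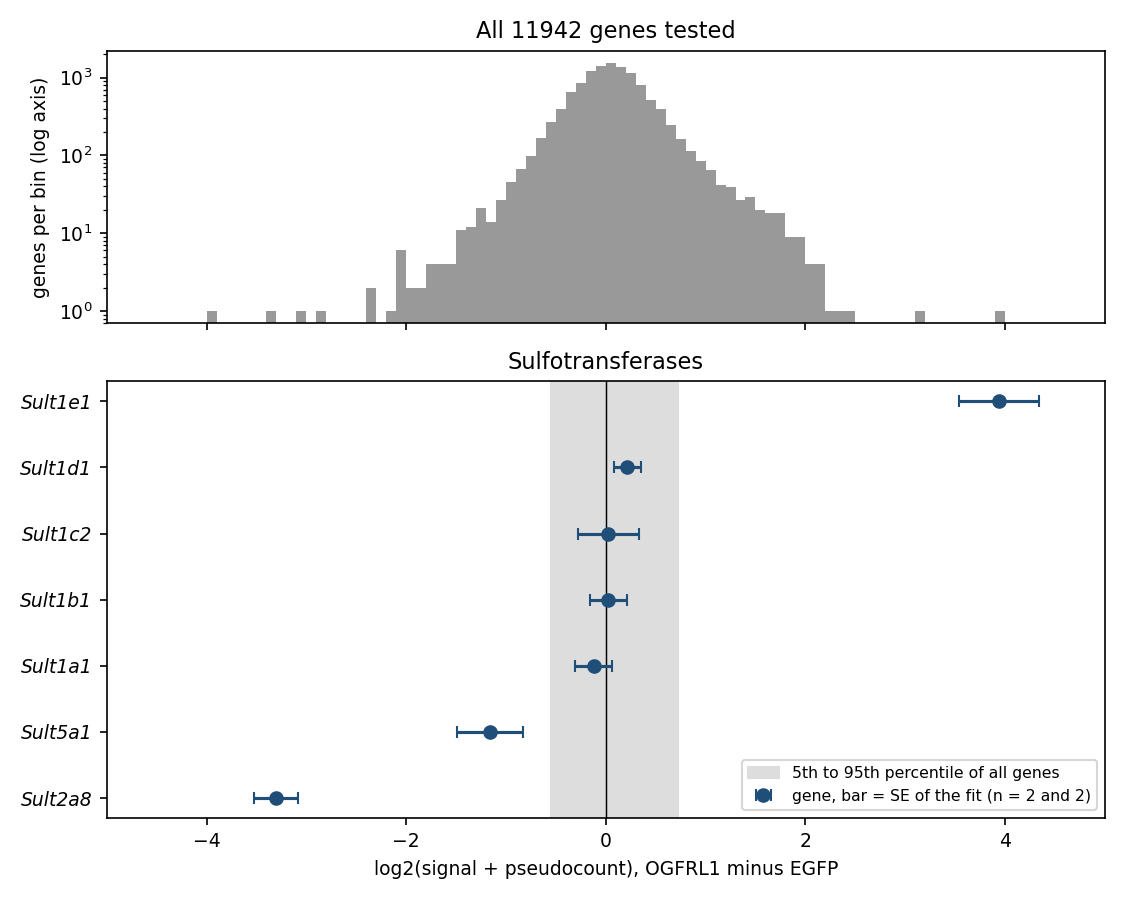
Top, log2 differences (OGFRL1 minus EGFP) of all 11942 genes tested, as genes per bin on a log axis; bottom, the 7 sulfotransferases, points with the SE of the fit (n = 2 and 2 arrays), over a grey band from the 5th to the 95th percentile of all genes (-0.55 to 0.73). Sult1e1 (3.94), Sult2a8 (-3.30) and Sult5a1 (-1.16) lie outside the band and the other 4 genes inside it.

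All 7 genes were kept by the filter on low signals, and each had a mean above the minimum of 11.6 in both groups. The threshold of the fit across all genes (limma, Benjamini-Hochberg adjusted over 11942 genes) called 0.511% of all genes, 0.36% as higher and 0.151% as lower. Since this contrast chose the members, calls of the members would be fixed in advance and are not given. No overlap between the groups was seen in 4 members, 2 in each direction, and in 47.5% of all genes (27% higher, 20.5% lower). Leaving out an array gave 619 calls without EGFP 1, 856 without EGFP 2, 0 without OGFRL1 1 and 2 without OGFRL1 2. In each of these fits 1 group is a lone array, assumed to vary like the pair left in the other group, so the counts reflect the spread of that pair as well as the array removed. Calls of the members are not followed across settings, because this contrast chose them.

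Array controls were compared as well. Gapdh and Actb 3' to 5' signal ratios, a measure of RNA integrity, were 0.73 to 0.79 and 1.57 to 1.94, with both groups overlapping. All 18 bacterial and phage spike-in probe sets were lower in OGFRL1 (geometric means 912 and 920 in EGFP, 653 and 790 in OGFRL1). They measure only BioB, BioC, BioD and Cre, controls added in equal amounts by standard protocols, and so are not 18 separate controls. The mean log2 difference was -0.43 for the 4 Cre and -0.32 for the 14 BioB, BioC and BioD probe sets. Scaling the arrays to these controls raised the median over all genes from 0.04 to 0.38, and gave log2 differences of 4.28 for Sult1e1, -2.96 for Sult2a8, -0.85 for Sult5a1, 0.56 for Sult1d1, 0.37 for Sult1b1 and 0.35 for Sult1c2. Sult1e1 and Sult2a8 still led and closed the order of the 7 genes, which a shift shared by all genes could hardly change.

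Hepatocyte markers were present at high signal, and all 8 measured were lower in OGFRL1, with a summed signal of 58880 to 79620 in EGFP and 46300 to 50740 in OGFRL1 and a median log2 difference of -0.47. After quantile normalization 5 of the 8 were lower (median -0.08), as after scaling to the spike-ins (median -0.12). The 7 measured proliferation markers were all higher (median 1.48), with sums of 539 to 983 and 2095 to 2566. Their part in the sulfotransferase values was not tested, and in bulk tissue fewer cells of a type cannot be told apart from less RNA per cell. Kidney and intestine also express members of the family. Kidney tubule markers summed to 60.1 to 74.8 in EGFP and 78.7 to 163 in OGFRL1 (4 of 7 above the minimum signal; the 163 is OGFRL1 2, where Umod had 78.5 against 3.04 to 11.7 on the other arrays), and intestinal markers to 4720 to 5622 and 4940 to 5290 (3 of 8 above it, carried by Apoa4 and Fabp2, which liver also expresses). Sums for cholangiocytes were 143 to 223 and 150 to 177, for macrophages 3200 to 6287 and 3663 to 5977, and for endothelium 1561 to 1676 and 1405 to 1487. Stellate cell and myofibroblast markers summed to 2532 to 3295 and 3114 to 3690, a sum carried by decorin (Dcn, log2 difference -0.0038). Of these 8 markers 6 were positive, with a median of 0.64 and 0 called, against 0.511% of all genes called. No overlap between the groups was seen in 7 of them, against 47.5% of all genes. Of the 7, 6 were higher in OGFRL1 and 1, Lrat, was lower (log2 difference -0.077). The collagen gene Col1a1 had signals of 26.8 and 42.1 in EGFP and 120 and 177 in OGFRL1, and Acta2, the smooth muscle actin of myofibroblasts, 76.8 and 107 against 213 and 199. Tagln had a log2 difference of 1.37 ± 0.28 and Pdgfrb 0.99 ± 0.20 (limma adjusted p of 0.0503 for Col1a1, the lowest of the 4). These carriers and examples were picked after their values were seen. Human transcripts from the transplanted cells may also bind mouse probes, which was not tested.

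Of 15 other cytosolic sulfotransferases listed, 6 were on the array with a symbol of their own and 1, Sult2a2, was above the minimum signal. Sult2a2, a steroid and bile acid sulfotransferase of the cluster that also holds Sult2a8, had 154 and 96.8 in EGFP and 340 and 247 in OGFRL1. Both OGFRL1 arrays were higher, with a log2 difference of 1.22 ± 0.26 (SE), which missed the threshold (limma adjusted p = 0.103). It was called after scaling to the spike-ins, at 1.57. Without EGFP 1 it was 1.55 and without EGFP 2 0.90, both called in fits whose spread comes from the OGFRL1 pair alone. The Sult2a genes are close copies of each other, so transcripts of other Sult2a genes may contribute to this probe set. The mean signals of Sult1c1, Sult2b1, Sult3a1, Sult4a1 and Sult6b1 were between 1.44 and 5.34, under the minimum, and were not tested.

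Genes of PAPS and sulfate supply provide the sulfonate donor. Of 10 tested, 7 had a negative and 3 a positive difference, and the median was -0.07 against 0.04 over all genes. In the limma fit 0 passed the threshold. That fit called 0.511% of all genes, so 0 calls carry no information for this list or for the similarly short lists described below. After scaling to the spike-ins 8 were positive, with a median of 0.28 against 0.38 over all genes, and Slc26a2 was called. Papss2 and Papss1, the PAPS synthases, named here for their role after their values were seen, had 1521 ± 403 and 1389 ± 51.6, and 151 ± 4.5 and 147 ± 4.47 (SD, n = 2 each). Their log2 differences were -0.11 ± 0.20 and -0.04 ± 0.15 (SE), and both signs turned after scaling to the spike-ins. As the mean over its probe sets Papss2 had -0.33. The sulfate carriers Slc26a1, Slc26a2 and Slc26a6 had -0.56 ± 0.26, 0.56 ± 0.30 and -0.34 ± 0.23, and Bpnt2, a phosphatase that clears the used donor in the Golgi, 0.33 ± 0.17 (adjusted p = 0.378 to 0.544 for the 4 genes).

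Enzymes that oxidise sulfur amino acids to sulfate and taurine had a median of -0.21, with 9 of 11 tested members negative and 0 called. The median turned to 0.14 after scaling to the spike-ins, where 3 of 11 were negative. Suox, the sulfite oxidase that makes sulfate, had 1131 and 1052 in EGFP and 648 and 544 in OGFRL1. Its groups were clearly apart (log2 difference -0.88 ± 0.15 SE), yet it missed the threshold (limma adjusted p = 0.0641). Csad, which leads to taurine, had -0.86 ± 0.36, Got1, an aspartate aminotransferase, 0.43 ± 0.18, and Tst, the thiosulfate sulfurtransferase rhodanese, -0.31 ± 0.13.

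The list of sulfatases, which remove sulfate groups, also held sulfatase-modifying factors. Its median was 0.04 over 11 tested genes, equal to that of all genes, with 0 called. No overlap between the groups was seen in 1 of 11, against 47.5% of all genes. The 1 sulfatase was Arsb, a lysosomal enzyme, with a log2 difference of 0.23 ± 0.15 (limma adjusted p = 0.512). Golgi sulfotransferases, which modify heparan sulfate, other sugars and tyrosines and are a separate family, had 9 of 20 tested genes positive, 0 called and a median of -0.05. After scaling to the spike-ins 16 of 20 were positive, with a median of 0.28, and Hs6st1 was called. The heparan sulfate enzymes Hs6st1, Hs2st1 and Hs6st2 had 0.38 ± 0.15, 0.34 ± 0.15 and 0.67 ± 0.29, and Hs3st2 -0.55 ± 0.28.

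Enzymes of steroid and thyroid hormone metabolism, whose substrates overlap with those of sulfotransferases, had a median of -0.47, with 14 of 16 negative and 0 called. That median was -0.12 after scaling to the spike-ins, with 10 of 16 negative. Cyp7b1, an oxysterol and steroid hydroxylase, had 623 and 1232 in EGFP and 206 and 329 in OGFRL1, a log2 difference of -1.74 ± 0.35 (limma adjusted p = 0.0963). It was called with the replicate number as a block (adjusted p = 0.019) and after scaling to the spike-ins (1.45e-05). As the mean over its probe sets it had -1.26 (limma adjusted p = 0.137). Cyp7b1 is also counted in the male-predominant list described below. Hsd11b1, which regenerates active glucocorticoid, had -0.69 ± 0.14, Akr1c6, a hydroxysteroid dehydrogenase, -0.58 ± 0.15 and Hsd3b3 -0.50 ± 0.13 (adjusted p of at most 0.149 each). As the mean over its probe sets Hsd3b3 had -0.16. All 4 named enzymes were lower on both OGFRL1 arrays than on both EGFP arrays, as were 20.5% of all genes. Naming by absolute moderated t favours such genes, so nothing is read from this.

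Transcription factors and receptors known to act on sulfotransferase genes or on sex-dependent liver genes had a median of -0.19, with 17 of 24 negative and 0 called. The median turned to 0.15 after scaling to the spike-ins. Ghr, the growth hormone receptor, had 3265 and 4623 in EGFP and 2220 and 2100 in OGFRL1 (-0.85 ± 0.19, limma adjusted p = 0.112). Hnf4a, a master factor of hepatocytes, had -0.55 ± 0.15, Cebpa -0.70 ± 0.22, and the aryl hydrocarbon receptor Ahr 0.35 ± 0.17. Averaging over probe sets gave -0.0056 for Ahr and -0.20 for Hnf4a.

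**Figure D3:**
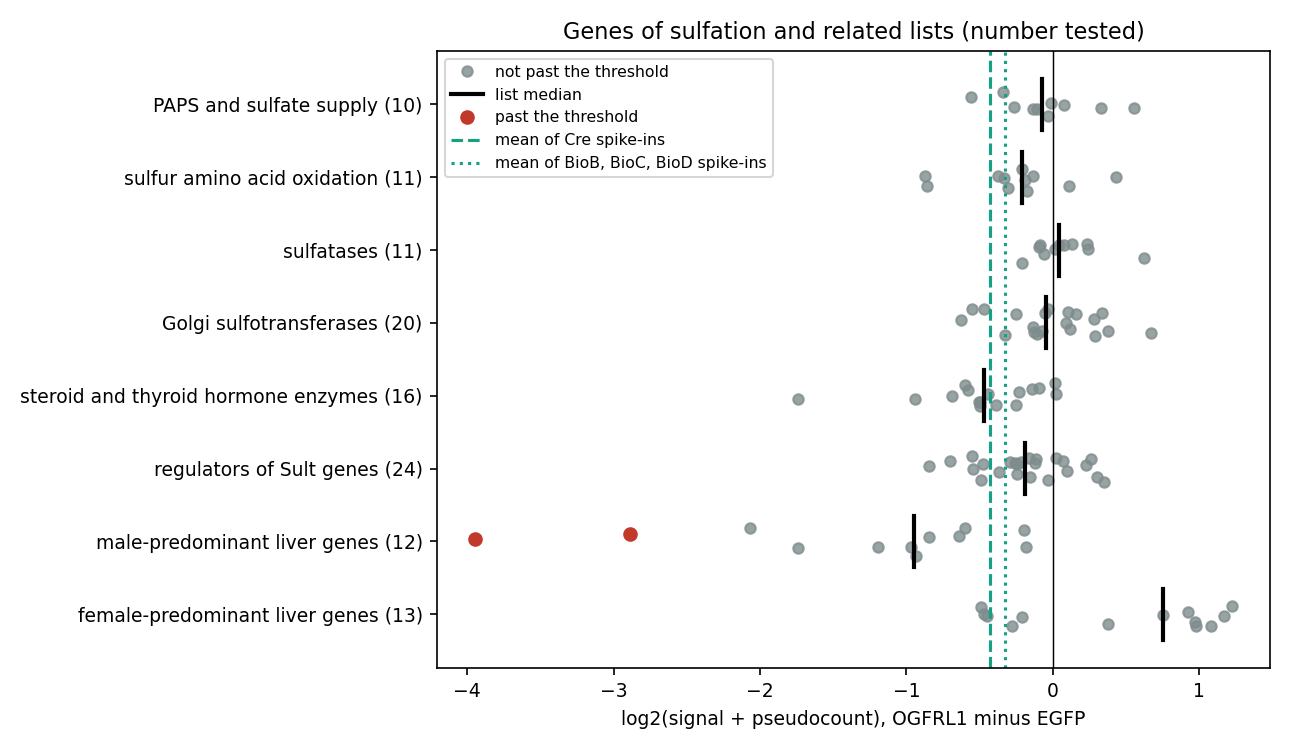
Log2 difference (OGFRL1 minus EGFP) of each tested gene in 8 lists of sulfation and related genes, with the number tested; black bars are list medians, red points passed the limma threshold, and green lines mark the spike-in means (-0.43 and -0.32). The 2 red points are Cyp4a12a and Mup3, both in the male-predominant list, whose median is -0.95, while the female-predominant list has a median of 0.75.

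Several sulfotransferases are expressed differently in male and female mouse liver, so genes known for such differences were set beside them. Among male-predominant genes, 12 of 12 tested were negative, with a median of -0.95 against 0.04 over all genes. Like the other lists, this one was chosen with earlier results known, so its counts are no test. All 8 hepatocyte markers were lower too (median -0.47). After quantile normalization the medians were -0.95 for the male-predominant genes and -0.08 for the hepatocyte markers. Of the 12 male-predominant genes 2 passed the threshold, against 0.151% of all genes called as lower. They were Cyp4a12a (-3.95 ± 0.35, limma adjusted p = 0.0364) and the urinary protein Mup3 (-2.88 ± 0.34, adjusted p = 0.0433). Elovl3, a fatty acid elongase, had -2.07 ± 0.30 and missed the threshold (adjusted p = 0.0512). After scaling to the spike-ins 10 of the 12 were negative (median -0.60). Among female-predominant genes, 8 of 13 were positive with a median of 0.75 and 0 called. The 5 negative ones were Cux2 (-0.49), Cyp2b9 (-0.47), Hao2 (-0.45), Ntrk2 (-0.28) and Rtn4 (-0.21). Cyp39a1, an oxysterol hydroxylase, had 0.97 ± 0.14 (adjusted p = 0.0539), the thioesterase Acot3 0.97 ± 0.16, and the peroxisomal transporter Abcd2 0.92 ± 0.25, or 0.29 when its probe sets were averaged. These 3 genes and Elovl3 were called after scaling to the spike-ins, and Cyp39a1 and Elovl3 also with 4 times the pseudocount. Sult2a2, described above, is also in this list. Cyp4a12a and Mup3 have close copies in the genome, so their probe sets may detect more than 1 gene. Neither was called without OGFRL1 1, without a filter on dim genes or without the intensity trend, and Mup3 was not called after quantile normalization, with the stricter filter or as the mean over its probe sets (-1.77).

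For likeness each gene was centred on its own mean, and predicted genes (those with Rik, Gm or LOC names) were skipped. The other genes most like Sult1e1 over the 4 arrays were found by the root mean square difference of log2 values. They were Cdh17, a cadherin of intestinal epithelium (0.55), Birc5, also known as survivin and needed for chromosome segregation (0.87), and Ect2, an exchange factor of cytokinesis (0.87). Cdh17 had 13.7 and 1.93 in EGFP and 70.8 and 95 in OGFRL1, and missed the threshold (limma adjusted p = 0.0684). Its EGFP mean of 7.80 is under the minimum signal, so it was kept only through the OGFRL1 arrays, and its log2 difference of 3.15 moved with the pseudocount, to 2.19 with 4 times the value, where it was called, and with the EGFP array left out, to 3.97 without EGFP 1 and 2.32 without EGFP 2. Those most like Sult2a8 were Ugt3a1, a glycosyltransferase (0.52), Cyp4a12a (0.54) and Mup3 (0.56). Ugt3a1 had 250 and 520 in EGFP and 66.5 and 66.9 in OGFRL1, a log2 difference of -2.38 ± 0.33. Birc5 (2.36 ± 0.21), Ect2 (2.23 ± 0.27) and Ugt3a1 were past the limma threshold, but not after quantile normalization or without either OGFRL1 array. Ect2 and Ugt3a1 were also not called with the stricter filter or as the mean over probe sets, and none of the 3 was without a filter or without the intensity trend. With 4 arrays in 2 groups, likeness mostly restates the size and sign of the group difference.

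**Figure D4:**
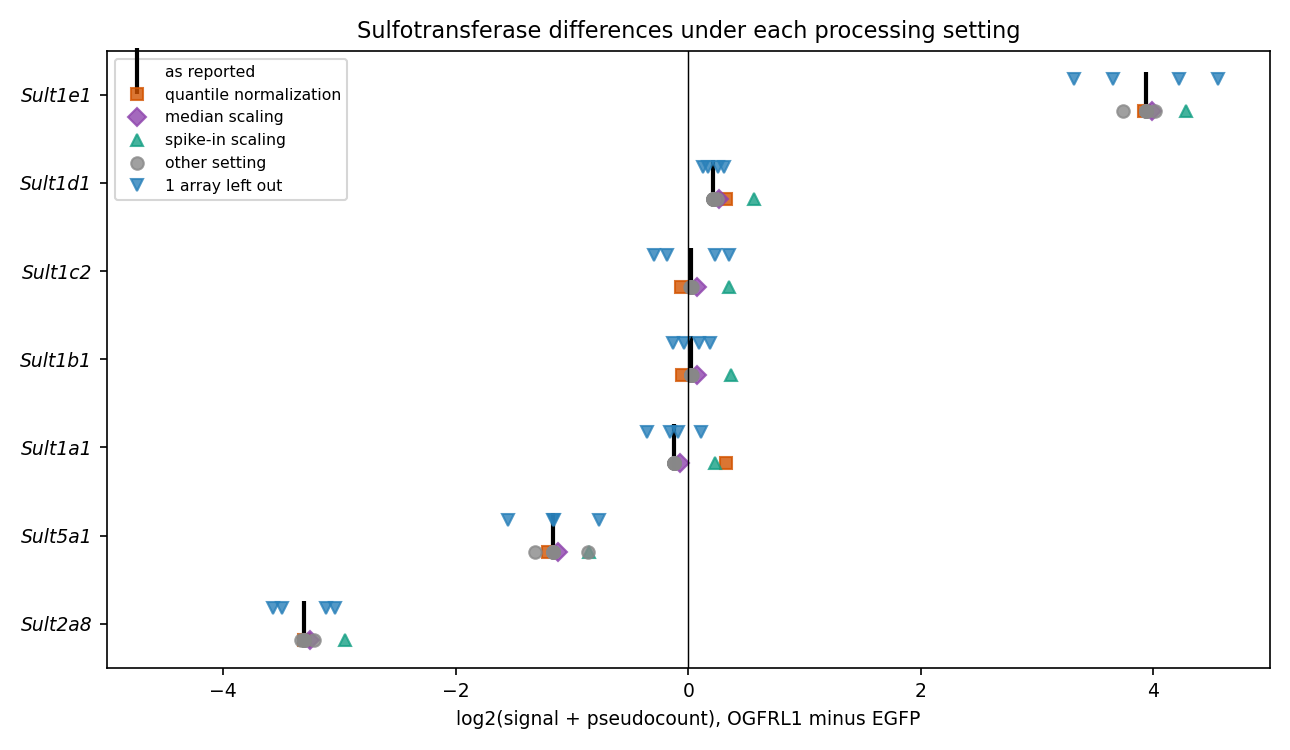
Log2 difference (OGFRL1 minus EGFP) of each sulfotransferase as reported (black bar) and under each alternative: 3 scalings, other settings (grey), and each array left out in turn (blue). Sult1e1 ranges from 3.32 to 4.55 and Sult2a8 from -3.57 to -2.96, while Sult1a1, Sult1b1 and Sult1c2 lie on both sides of 0.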

How the data were processed

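Biotin-labelled cRNA from 100 ng of total RNA was hybridised per array, per the labels' protocols. The authors deposited intensity values made with MAS5, not log-transformed, per the submitters' processing notes and the values, with the software version, scanner and detection calls not given in the sources used here; each array had the same mean of 100 without its lowest and highest 2%, so the number of arrays and not a read depth limits precision. Of 45101 probe sets, 34945 had 1 symbol in the platform annotation, 932 several and 9160 none, and 64 were controls; those without a single symbol were left out. Signals were log2-transformed after adding 3.51, their 25th percentile, which understates changes of dim genes. The probe set with the highest mean signal stood for its gene, kept at a mean of at least 11.6 (the median), which left 11942 genes. limma 3.58.1 in R 4.3.3 (lmFit, eBayes with intensity trend, 2-sided, Benjamini-Hochberg, threshold 0.05) was fitted to all of them, and tested on simulated data. Figures used matplotlib 3.10.9. Members and gene lists were chosen with earlier results of these data known. Named genes are the members, their nearest genes by likeness, and up to 4 per list. Those of a list were first the genes past the threshold by absolute log2 difference, then by absolute moderated t. Of sulfatases 1 was named. Lrat and the negative female-predominant genes were named beyond this rule to show the other direction. Alternatives covered scaling, pseudocount, filter, probe sets, variance model, replicate block and each array left out.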

Additional observations from a re-analysis of the deposited data

How the results depend on the processing

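Over the 15 alternatives Sult1e1 and Sult2a8 kept their sign, as did Sult1d1 (0.13 to 0.56) and, in the 14 that tested it, Sult5a1, which the stricter filter (mean of at least 46.6) removed together with Sult1c2. Groups that do not overlap cannot change sign when an array is left out, so this adds no support. Quantile normalization gave 0.33 for Sult1a1 and 0.32 for Sult1d1, and spike-in scaling 0.23, 0.56, 0.37 for Sult1b1 and -2.96 for Sult2a8. Leaving out an array gave 3.32 to 4.55 for Sult1e1, -3.57 to -3.03 for Sult2a8, -0.35 to 0.11 for Sult1a1, -0.13 to 0.19 for Sult1b1, -0.29 to 0.35 for Sult1c2, 0.13 to 0.30 for Sult1d1 and -1.55 to -0.77 for Sult5a1.

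Calls in the limma fit numbered 61 (43 higher and 18 lower), of which 3 were list genes. Quantile normalization called 4 (1 higher and 3 lower), of which 1 was a list gene. Spike-in scaling called 1511 (1454 higher and 57 lower), with 29 list genes, and 4 times the pseudocount 94, with 6. The stricter filter called 21 and the mean over probe sets 13. With no filter, and likewise with no trend, limma called 0 genes. In those fits 2179 and 1654 genes had an unadjusted p under 0.05. Median scaling called 5 list genes. Leaving out an array gave 0 to 856 of 11942 genes and 0 to 37 list genes. Each such fit has a lone array in 1 group and takes the spread from the other pair. Nothing is therefore read from these counts. Without OGFRL1 1, 922 genes had an unadjusted p under 0.05. With the replicate number as a block 59 genes were called, 38 of them shared with the 61, and 6 list genes. No label ties equal replicate numbers to a common animal or day, and deviations of same-numbered arrays correlated at -0.28 across genes. The crossed pairing, chosen after seeing the data, called 934 genes and 41 list genes. The cause of these differences was not tested.

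Papss1 turned to 0.012 with median scaling and 0.31 with spike-in scaling, Papss2 to 0.24 with spike-in scaling and 0.17 without EGFP 1, Tst to 0.043 with spike-in scaling, and Ahr to -0.0056 when its probe sets were averaged. Papss2 ranged from -0.38 to 0.17 over the arrays left out.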
